A study of Mus musculus with 6 samples.

Results

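Acsm1, Acsm2, Acsm3 and Acsm5, which encode medium-chain acyl-CoA ligases, and Glyat and Keg1, a glycine N-acyltransferase and its relative, were measured by RNA sequencing in mouse kidneys. They were taken by symbol as the 6 rows of these names among the 46095 rows of a table of raw counts, and all 6 passed the filter on low counts, with at least 10 counts in every library. One group of 3 kidney samples was labelled DHT, for dihydrotestosterone, a potent androgen. The other group of 3 was labelled control. Both groups carry the strain label PCOS mouse, for a model of polycystic ovary syndrome, on a C57BL/6 background, and differ in the treatment label only. No source used here gives the age, sex, dose, route or length of treatment, or says that the samples of a group are separate animals. P-values therefore measure the spread between these samples, which may be technical.

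Acsm enzymes sit in the mitochondrial matrix and join medium-chain fatty acids and aromatic acids such as benzoate to coenzyme A. Glyat then moves the acyl group from coenzyme A to glycine, and the product, such as hippurate from benzoate, leaves through the kidney into the urine. The pathway is known from the liver and from the proximal tubule of the kidney. Acsm3, first known as the SA gene, was found as a candidate gene in hypertensive rat strains, and Acsm2 is a marker of proximal tubule cells in the mouse. Acsm1 acts on butyrate and medium-chain acids, Acsm5 is less studied, and Keg1, named as a kidney expressed gene, is a relative of Glyat.

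The 4 Acsm members lie on chromosome 7 and Glyat and Keg1 on chromosome 19, all on the plus strand of GRCm38, the assembly of mm10. Acsm5 (119519463 to 119545551), Acsm2 (119554340 to 119600690) and Acsm1 (119607026 to 119662515) follow each other, and Acsm3 (119760923 to 119787513) lies further along. Glyat (12633308 to 12653911) and Keg1 (12695786 to 12719902) are neighbours, 41.9 kb apart. The 250 bases before the annotated start are shown for the 3 members whose DHT and control values did not overlap, Acsm3, Glyat and Keg1, and for Acsm2, the member with the most counts, at the first of its 2 starts. They come from RefSeq on GRCm38.p6, which held 7 windows for the 6 members. They are chr7:119760673-119760922 for Acsm3, chr7:119554090-119554339 for Acsm2, chr19:12633058-12633307 for Glyat and chr19:12695540-12695789 for Keg1, and capitals mark matches to the motifs listed after them.
Acsm3: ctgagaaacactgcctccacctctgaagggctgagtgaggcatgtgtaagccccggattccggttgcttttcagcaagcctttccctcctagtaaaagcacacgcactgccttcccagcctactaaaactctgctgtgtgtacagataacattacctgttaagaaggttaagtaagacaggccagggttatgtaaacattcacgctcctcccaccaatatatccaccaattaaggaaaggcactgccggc
Acsm2: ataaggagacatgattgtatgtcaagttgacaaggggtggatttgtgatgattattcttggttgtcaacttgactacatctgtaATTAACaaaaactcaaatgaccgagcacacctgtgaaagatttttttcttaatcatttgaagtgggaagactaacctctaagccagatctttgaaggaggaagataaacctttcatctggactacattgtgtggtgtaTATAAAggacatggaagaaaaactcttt
Glyat: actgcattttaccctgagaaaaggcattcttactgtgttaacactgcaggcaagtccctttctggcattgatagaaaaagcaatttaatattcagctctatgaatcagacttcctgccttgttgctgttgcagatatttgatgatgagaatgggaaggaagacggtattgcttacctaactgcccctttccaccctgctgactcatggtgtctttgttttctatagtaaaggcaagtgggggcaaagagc
Keg1: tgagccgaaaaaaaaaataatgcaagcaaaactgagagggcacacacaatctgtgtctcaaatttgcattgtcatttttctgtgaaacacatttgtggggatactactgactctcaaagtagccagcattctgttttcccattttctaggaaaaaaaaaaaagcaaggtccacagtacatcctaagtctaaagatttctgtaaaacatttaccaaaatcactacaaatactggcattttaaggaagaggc
The motifs were the core hexamer of the androgen and glucocorticoid receptors, AGAACA, the core hexamer shared by many nuclear receptors, AGGTCA, the HNF1 core GTTAAT and the TATA box TATAAA. They were searched on both strands of windows that also took in 50 bases after the start, and none of the 4 overlaps another in these windows. The Acsm3 and Glyat windows held none of them. The Acsm2 window held TATAAA at position -28, GTTAAT on the other strand at -166 and AGAACA on the other strand at 14, counted from the start, the last of these past the bases printed. The Keg1 window held AGAACA on the other strand at positions 7 and 14, also past the bases printed. Of the windows not printed, that of Acsm1 held AGGTCA on the other strand at -107, and those of Acsm5 and of the second Acsm2 start held none. The RefSeq starts used for these windows, 119617812 for Acsm1, 119526265 for Acsm5 and 119561708 for Acsm2, lie inside the gene spans given above. AGAACA occurred in 19.0% of 32851 windows of the same length, AGGTCA in 16.3%, GTTAAT in 7.1% and TATAAA in 13.6%. A match is a match of letters only.

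Library totals were 15054763 to 18624947 counts in DHT and 15994714 to 19331942 counts in control. At a Benjamini-Hochberg adjusted p of 0.05 in edgeR, 437 of 15367 tested genes (2.84%) were called, 1.38% higher in DHT and 1.46% lower. Proximal tubule markers such as Lrp2 and Slc34a1 were abundant, with a summed level over 12 genes of 14750 to 19960 CPM (counts scaled to a common library size) in DHT and 14350 to 19560 CPM in control. Of these 12 markers 0 were called and 3 had a positive log2 fold change. The groups did not overlap for 2 with DHT lower, against 15.0% of all genes, and for 0 with DHT higher, against 14.8%. The 2 were Lrp2 (log2 fold change -0.41, edgeR adjusted p = 0.209) and Slc34a3 (-1.23, edgeR adjusted p = 0.0504). Hepatocyte markers bear on Glyat and the Acsm genes because the liver makes them too. Of 10 such genes 7 were tested and 0 called. Tat was at 0 counts in all 6 libraries, and Cps1 had at most 4 counts and Ahsg at most 2 in any library. Ttr was present at 77.4, 26.1 and 90.1 CPM in DHT, against 37.1, 66.1 and 35.3 CPM in control, and Alb at 16.9, 12.5 and 15.2 CPM in DHT, against 19.4, 14.8 and 8.71 CPM in control. Serpina1a did not overlap, at 7.16, 40.6 and 12.0 CPM in DHT, against 2.77, 3.79 and 3.61 CPM in control, and neither did Fgb, at 1.26, 4.88 and 2.73 CPM in DHT, against 5.84, 8.35 and 6.23 CPM in control. The sum over 10 hepatocyte genes was 118 to 150 CPM in DHT and 84.2 to 141 CPM in control. On the first principal component of log2 CPM, which held 46.8% of the variance, DHT replicate 2 scored -13.9, apart from DHT replicates 1 and 3 at -45.0 and -46.6, while controls scored 27.3 to 42.6. It had the lowest DHT value for 6 of the 6 members, and its summed macrophage, endothelial and red blood cell markers were 239, 601 and 70.3 CPM. In the other DHT libraries these sums reached at most 176, 333 and 4.51 CPM, and in the controls at most 178, 418 and 37.5 CPM. Control replicate 3 had the lowest control value for 5 of the 6 members. Its summed loop of Henle markers were 14540 CPM, against 6597 and 9222 CPM in control replicates 1 and 2. Its summed proximal tubule markers were 14350 CPM, against 19560 and 17980 CPM in control replicates 1 and 2. Cyp11a1, an adrenal cortex marker, had 128 counts in control replicate 3, 6 in control replicate 2 and 0 elsewhere. Cyp11b1, Cyp11b2 and Cyp21a1 of the same list had 0 in all libraries. Cfd, an adipocyte marker, had 232 counts in control replicate 2, 26 in control replicate 3 and at most 1 elsewhere. Fabp4 of that list was highest in DHT replicate 2, at 116 CPM. Summed markers of the straight segment of the proximal tubule were 9386, 4918 and 10630 CPM in DHT, against 3058, 8198 and 6275 CPM in control, with overlap. The log2 fold changes of its genes ran both ways. Slc7a13, an amino acid transporter, was called, at 739, 117 and 642 CPM in DHT, against 0.369, 1.5 and 0.792 CPM in control (log2 fold change 9.10 ± 1.0 SE, edgeR adjusted p = 0.0201). That call, the single one among the 8 genes, was lost without DHT replicate 1 (edgeR adjusted p = 0.0543), DHT replicate 3 (0.0911), control replicate 2 (0.0876) or control replicate 3 (0.0865). Cyp7b1 had a log2 fold change of 3.02, against -2.13 for Slc22a7 and -1.02 for Slc22a13, none of them called. The part of these cells in the members' values was not tested, and fewer cells of a type cannot be told apart from less RNA per cell.

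Acsm3 showed the widest separation of the members between the groups. Its raw counts were 16612, 819 and 3760 in DHT replicates 1, 2 and 3, against 183, 113 and 67 in control replicates 1, 2 and 3. The level was 1040, 51.3 and 223 CPM in DHT, against 11.3, 5.86 and 3.31 CPM in control. Every DHT library lay above every control library, and the lowest DHT value was 4.56 times the highest control value. The DHT libraries themselves spread 20.3-fold, with replicate 1 far above the others, against 3.39-fold among controls. The mean was 439 ± 530 CPM in DHT and 6.81 ± 4.05 CPM in control (SD, n = 3 each), a log2 fold change of 6.02 ± 1.28 SE that did not pass the threshold (edgeR adjusted p = 0.0634). DESeq2 called it (adjusted p = 8.65e-06), as did edgeR with no robust step (adjusted p = 0.0374). Leaving out DHT replicate 2 gave 6.54 and a call (edgeR adjusted p = 0.0352). Leaving out DHT replicate 1 gave 4.35 and no call. Of the merged exons of Acsm3, 39.7% (1962 bases) are also exonic in Eri2, an exonuclease gene on the other strand. Whether strand was used in counting is not given, so reads there cannot be told apart. Eri2 had 172, 176 and 173 counts in DHT and 185, 142 and 132 in control, close to the Acsm3 counts of the controls and far under those of the DHT libraries.

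Acsm2 was the most abundant member in counts and ranked 15 of 15367 genes by mean CPM. It stood at 6010, 2160 and 5530 CPM in DHT, against 2700, 1670 and 1170 CPM in control. DHT replicates 1 and 3 were above all controls, while DHT replicate 2 lay under control replicate 1. The log2 fold change was 1.30 ± 0.44 SE (edgeR adjusted p = 0.131). DESeq2 called it (adjusted p = 0.00761), and so did edgeR once DHT replicate 2 was left out, at 1.63 (adjusted p = 0.0272).

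Acsm5 stood at 130, 81.0 and 151 CPM in DHT, against 97.8, 105 and 77.3 CPM in control. The groups overlapped, and the log2 fold change of 0.37 ± 0.23 SE was not past the threshold (edgeR adjusted p = 0.357). Only 104 of its exonic bases are shared with Pdilt, a gene on the other strand, which had at most 120 counts in a library.

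Acsm1 was the single member with its mean lower in DHT. Its level was 168, 121 and 236 CPM in DHT, against 234, 325 and 268 CPM in control. The highest DHT library was just above the lowest control library, so the groups touched at that point. The mean was 175 ± 57.6 CPM in DHT and 276 ± 45.7 CPM in control (SD, n = 3 each), a log2 fold change of -0.66 ± 0.24 SE (edgeR adjusted p = 0.15), which passed in 0 of 14 alternative settings and libraries left out.

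**Figure D1:**
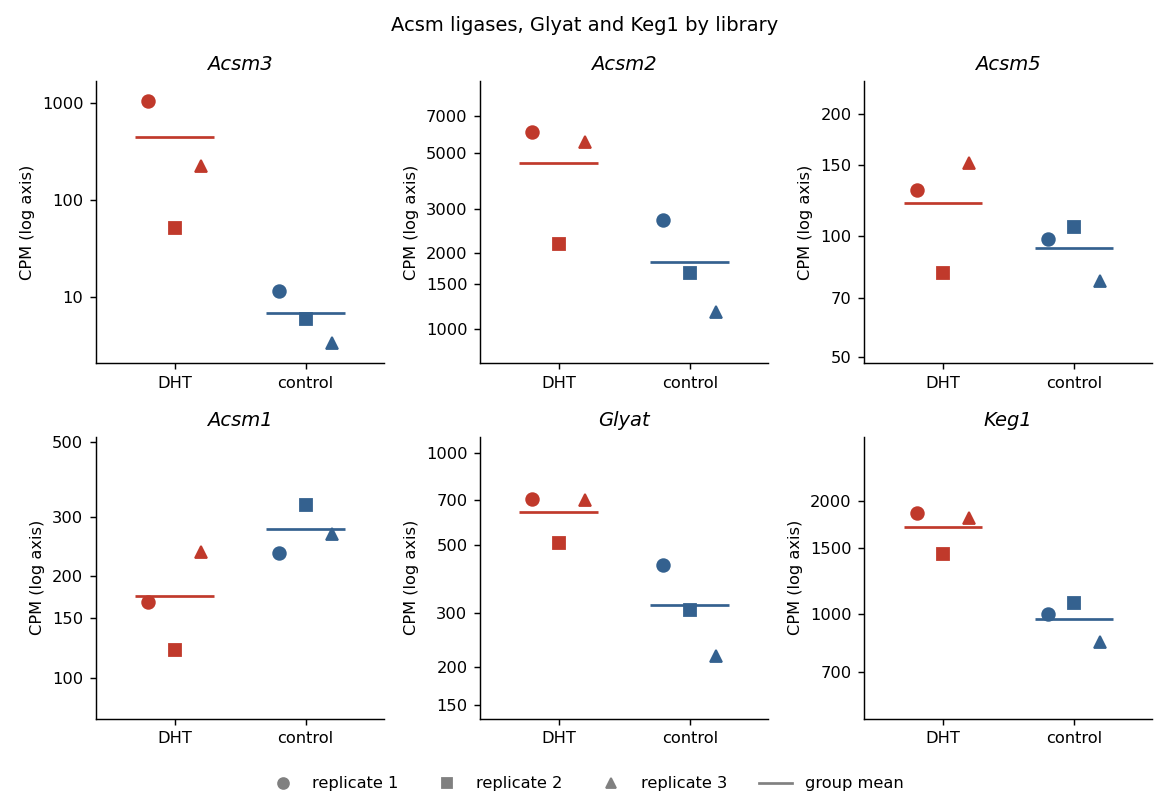
Level of each member in every library, in CPM on a log axis, with DHT at the left and control at the right of each panel; symbols give the replicate and lines the group means. Acsm3, Glyat and Keg1 have all DHT libraries above all controls, with Acsm3 from 51.3 to 1040 CPM in DHT and 3.31 to 11.3 CPM in control, and Acsm1 has its mean lower in DHT.

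Glyat, the enzyme of hippurate formation, stood at 708, 508 and 703 CPM in DHT, against 430, 306 and 216 CPM in control. All DHT libraries were above all controls. The mean was 640 ± 114 CPM in DHT and 317 ± 108 CPM in control (SD, n = 3 each), a log2 fold change of 1.01 ± 0.26 SE that did not pass (edgeR adjusted p = 0.0693). Calls came from DESeq2 (adjusted p = 0.00186), with no low-count filter (edgeR adjusted p = 0.0383), without control replicate 1 (edgeR adjusted p = 0.0362) and without DHT replicate 2 (edgeR adjusted p = 0.04).

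Keg1 had the smallest spread within a group of the 6 members, with a coefficient of variation of 13.3% in DHT and 12.1% in control. It stood at 1850, 1440 and 1800 CPM in DHT, against 1000, 1070 and 842 CPM in control, with no overlap. The mean was 1690 ± 225 CPM in DHT and 972 ± 118 CPM in control (SD, n = 3 each). Its log2 fold change of 0.80 ± 0.18 SE just missed the threshold (edgeR adjusted p = 0.0539). It was called with DESeq2 (adjusted p = 5.84e-05), with total-count scaling (edgeR adjusted p = 0.0419), with no low-count filter (edgeR adjusted p = 0.0201) and without DHT replicate 2 (edgeR adjusted p = 0.0239). Of its exonic bases 8.7% are shared with Gm15962, an antisense gene with no row of its own among those used here.

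Of the 6 members, 0 were thus called by edgeR, where 2.84% of all genes were (1.38% higher and 1.46% lower), and 0 by limma-voom, where 2.09% were. DESeq2 called 4, all higher, where it called 10.8% of all genes and 5.67% as higher. At an unadjusted edgeR p of 0.05 they were 5, against 23.9% of all genes, with 4 higher, against 12.0%, and 1, Acsm1, lower, against 12.0%. The groups did not overlap for 3 members, against 29.8% of all genes. DHT was higher in all 3, against 14.8%, and lower in 0, against 15.0%. The median log2 fold change of the members was 0.90, against 0.00304 over all genes. Without DHT replicate 2, edgeR called 4 members, all higher, where it called 7.76% of all genes and 4.72% as higher. No transcript of another gene matched a member's at 95% identity over at least 50% of its length. Shorter stretches matched, 751 bases at 100% between Acsm3 and Eri2 and 177 bases at 99.4% between Keg1 and Gm15962. Over aligned bases, the 4 Acsm members matched each other at 63.9% to 69.3%, and Glyat matched Keg1 at 72.7%. Acsm4, the remaining mouse relative on the lists, had 0 counts in all libraries.

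Because the scaling between libraries cancels in a ratio within a library, the members were also set against each other. The 9 ratios were compared with exact two-sided permutation tests, which with 3 against 3 cannot go below 0.1. Acsm3 over Acsm2, in log2 counts, was -2.52, -5.40 and -4.63 in DHT, against -7.90, -8.15 and -8.45 in control. The ratios did not overlap, and their means differed by 3.98 (exact permutation p = 0.1, adjusted over the 9 pairs 0.18). Acsm2 over Acsm1, which are neighbours on chromosome 7, was 5.16, 4.16 and 4.55 in DHT, against 3.53, 2.36 and 2.12 in control, a difference of 1.95 (exact permutation p = 0.1, adjusted 0.18). Acsm5 over Acsm1 also did not overlap, at -0.37, -0.58 and -0.64 in DHT against -1.26, -1.63 and -1.80 in control (difference 1.03, exact permutation p = 0.1, adjusted 0.18). Acsm1 and Acsm5 each overlapped between groups on their own, and their ratio did not. Acsm2 over Acsm5 overlapped, at 5.53, 4.74 and 5.20 in DHT against 4.79, 3.99 and 3.92 in control (difference 0.92, exact permutation p = 0.2, adjusted 0.3). Glyat over Keg1 was -1.38, -1.50 and -1.36 in DHT, against -1.22, -1.81 and -1.96 in control, with overlap (difference 0.25, exact permutation p = 0.4, adjusted 0.45). Glyat over Acsm2 and Keg1 over Acsm2 overlapped as well, with differences of -0.20 and -0.46.

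**Figure D2:**
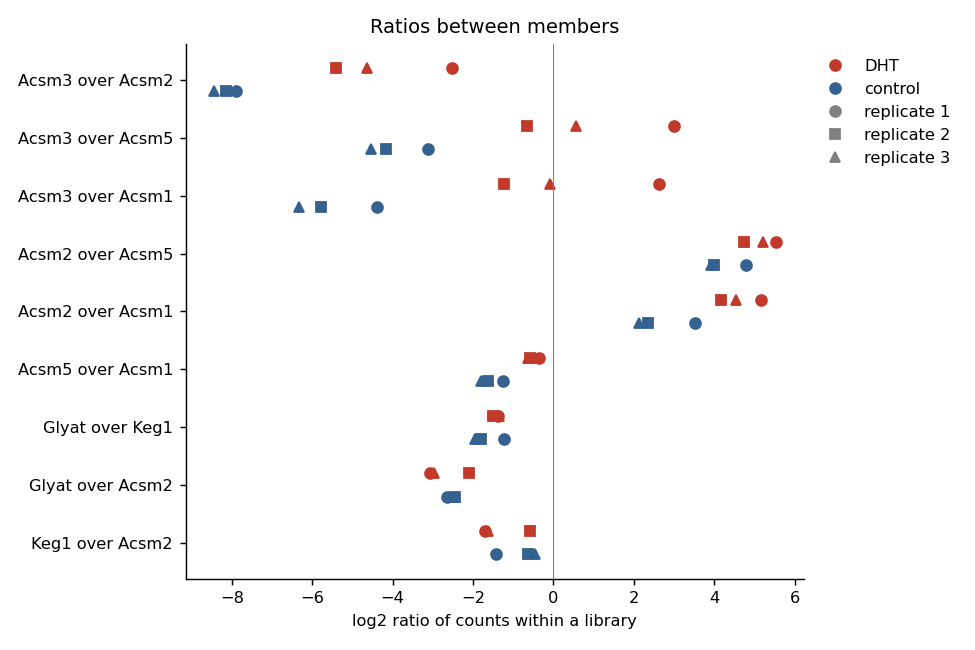
Log2 ratio of raw counts between pairs of members within each library, DHT above control in each row; symbols give the replicate. The pairs with Acsm3 on top, Acsm2 over Acsm1 and Acsm5 over Acsm1 separate the groups, and Acsm2 over Acsm5 and the pairs with Glyat or Keg1 on top overlap.

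The makeup of the Acsm counts followed these ratios. Acsm2 made up 81.7%, 89.5% and 90.1% of the counts of the 4 Acsm genes in DHT, against 88.7%, 79.3% and 77.0% in control, with overlap. Acsm3 made up 14.2%, 2.12% and 3.63% in DHT, against 0.369%, 0.278% and 0.218% in control. Acsm1 made up 2.29%, 5.01% and 3.84% in DHT, against 7.69%, 15.4% and 17.7% in control. The Acsm3 and Acsm1 shares did not overlap between groups. The summed level of the 4 genes was 7349, 2414 and 6137 CPM in DHT, against 3046, 2107 and 1518 CPM in control, so that DHT replicate 2 lay within the control range (exact two-sided permutation p = 0.2). That of Glyat and Keg1 together was 2557, 1945 and 2501 CPM in DHT, against 1435, 1377 and 1058 CPM in control, with no overlap (exact two-sided permutation p = 0.1, the smallest that 3 against 3 allows).

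Levels of different genes were compared per length, as CPM per kb of the principal transcript in GENCODE M21. Keg1 averaged 1010 ± 134 CPM per kb in DHT and 580 ± 70.3 in control, and Acsm2 678 ± 311 in DHT and 274 ± 116 in control (SD, n = 3 each). Glyat averaged 227 ± 40.4 CPM per kb in DHT and 112 ± 38.2 in control, close to Acsm1 in control at 132 ± 21.9. In DHT, Acsm3 averaged 159 ± 193 CPM per kb, a spread that takes in Acsm1 at 84.0 ± 27.6 and Acsm5 at 40.5 ± 12.0. In control, Acsm3 was the lowest member at 2.47 ± 1.47 CPM per kb, well under Acsm5 at 31.3 ± 4.85. Per kb of merged exons, Acsm2 came before Keg1 in both groups, so the order of the highest pair depends on the gene model. By group mean, the order of the other 4 was the same on both scales. It ran from Glyat through Acsm3 and Acsm1 to Acsm5 in DHT, and from Acsm1 through Glyat and Acsm5 to Acsm3 in control. Single libraries departed from it. Per kb of principal transcript, Acsm3 was the lowest member in DHT replicate 2, at 18.6 against 27.2 for Acsm5. In DHT replicate 3 it was under Acsm1, at 81.0 against 113. Glyat was above Acsm1 in control replicate 1, at 153 against 112.

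**Figure D3:**
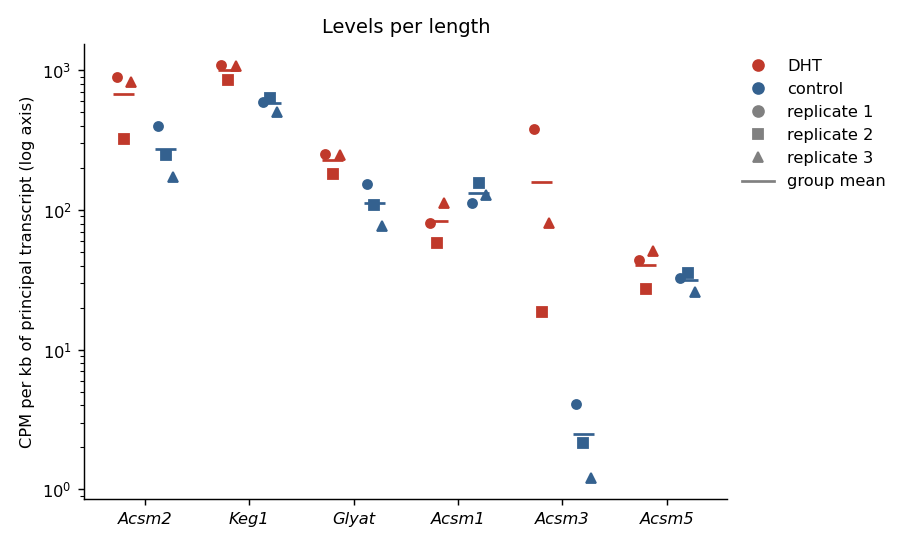
Level of each member per kb of its principal transcript, in CPM per kb on a log axis, DHT left of control for each gene; symbols give the replicate and lines the group means. Keg1 and Acsm2 are the highest pair in both groups, and Acsm3 is the lowest in control at 2.47 CPM per kb.

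Of the genes next to the members, Thumpd1, the nearest tested protein-coding gene on one side of Acsm3 and on the other side of Acsm1, stood at 40.0, 42.1 and 36.3 CPM in DHT, against 37.2, 30.1 and 28.2 CPM in control (log2 fold change 0.31 ± 0.14 SE, edgeR adjusted p = 0.205). Eri2 and Pdilt, at the outer sides of Acsm3 and Acsm5, had log2 fold changes of 0.35 ± 0.23 and 0.05 ± 0.35 SE (edgeR adjusted p = 0.391 and 0.945). Zfp91, past Keg1, had -0.02 ± 0.13 SE (edgeR adjusted p = 0.944). On the far side of Glyat lies Gm4952, a glycine N-acyltransferase-like gene whose transcript matches Glyat at 75.2% and Keg1 at 76.2% of aligned bases. It stood at 3.52, 2.32 and 4.15 CPM in DHT, against 1.84, 1.30 and 1.19 CPM in control, with no overlap (log2 fold change 1.21 ± 0.35 SE, edgeR adjusted p = 0.0892). All 3 genes of this block on chromosome 19, with Glyat and Keg1 already counted above, thus had every DHT library above every control library. So did 14.8% of all genes, and Gm4952 had only 24 to 70 counts in a library.

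Within the body of Acsm1 lies Gm19950, an antisense gene that shares 0 exonic bases with it and was singled out after its values were seen. It stood at 68.4, 33.0 and 61.5 CPM in DHT, against 20.6, 18.9 and 12.5 CPM in control. It rose in DHT (log2 fold change 1.65 ± 0.30 SE, edgeR adjusted p = 0.0405), while the Acsm1 mean was lower there. That call was lost with the replicate block (edgeR adjusted p = 0.0802), with no low-count filter (0.0766) and without DHT replicate 1 (0.107), DHT replicate 3 (0.144), control replicate 1 (0.062), control replicate 2 (0.14) or control replicate 3 (0.0921).

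**Figure D4:**
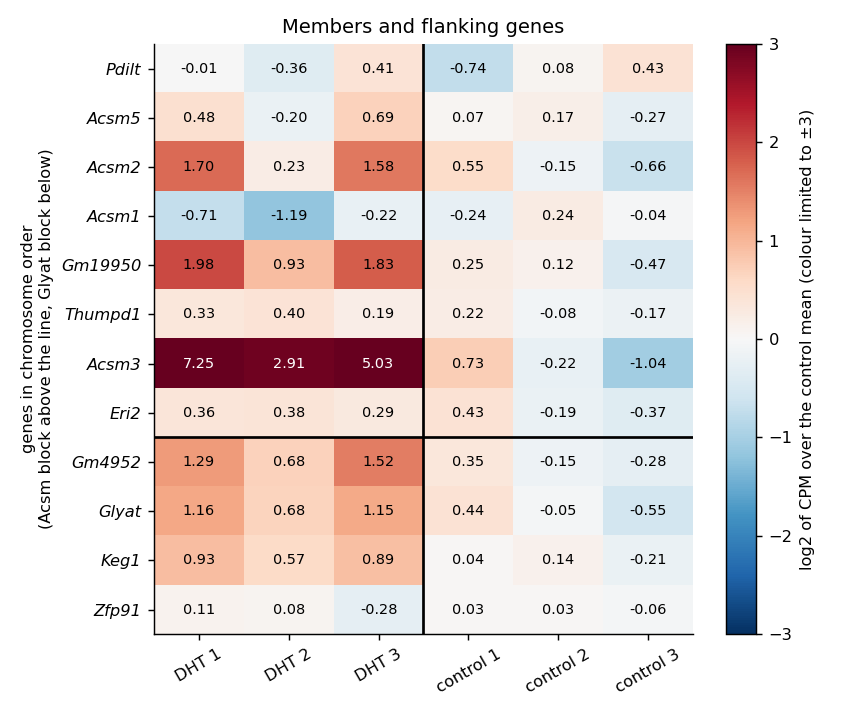
Members and flanking genes in chromosome order (rows) by library (columns, DHT left), as log2 of CPM over the mean of the controls, with colour limited to 3 on either side. Acsm3 stands at 7.25, 2.91 and 5.03 in DHT while its neighbours Thumpd1 and Eri2 stay between 0.19 and 0.40, and Gm4952, Glyat and Keg1 are all positive in DHT.

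The genes most like each member across the 6 libraries were found by the root mean square distance of log2 CPM, centred on each gene's own mean, among 9664 genes of at least 10 CPM on average. Acsm3 was nearest to Pzp, a plasma protease inhibitor of the alpha-2-macroglobulin family, at a distance of 0.55. It was next nearest to the cytochromes P450 Cyp4a12a, a fatty acid hydroxylase, at 0.68 and Cyp2e1, which oxidises ethanol, at 0.93. Pzp stood at 62.4, 3.01 and 23.1 CPM in DHT, against 0.553, 0.0519 and 0.0989 CPM in control. Cyp4a12a stood at 335, 59.2 and 64.6 CPM in DHT, against 7.99, 3.27 and 1.83 CPM in control. Both had DHT replicate 1 highest and DHT replicate 2 lowest of the DHT libraries, as Acsm3 did. They were chosen for likeness over these same libraries, so that shared order is no separate result. Pzp was close to the floor in control and reached the mean of 10 CPM through its DHT values. Of the 3, Cyp2e1 was called (log2 fold change 4.19 ± 0.67 SE, edgeR adjusted p = 0.0376), and its call was lost without any single library other than DHT replicate 2 (edgeR adjusted p = 0.0541 to 0.14), with the replicate block (0.0661) and with no low-count filter (0.0966).

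Acsm2 was nearest to Nr1h4, the bile acid receptor FXR, to Osbp2, an oxysterol-binding protein gene, and to Slc22a22, an organic anion transporter, at distances of 0.16, 0.16 and 0.17. Nr1h4 stood at 185, 82.5 and 189 CPM in DHT, against 88.0, 66.2 and 48.3 CPM in control. For Glyat the nearest were Hlf, a clock-controlled transcription factor, Gm39079 and Nmrk1, a nicotinamide riboside kinase, at distances of 0.10 to 0.11. Keg1 lay nearest to Hebp1, a heme-binding protein gene, Sephs2, which makes selenophosphate, and Cutc, at 0.06 to 0.07. Hebp1 stood at 129, 113 and 132 CPM in DHT, against 78.7, 82.7 and 63.2 CPM in control, and was called (log2 fold change 0.73 ± 0.14 SE, edgeR adjusted p = 0.0376), a call lost with the replicate block (edgeR adjusted p = 0.0918) and without any single library other than DHT replicate 2 (0.054 to 0.137). Acsm1 lay nearest to Nhsl1, Gramd1b and Baiap2l1 at 0.15 to 0.17, and Acsm5 to Fbxo7, Ush1c and Sypl2 at 0.07 to 0.08. A small distance for Acsm5 goes with its small range, and for Acsm3 the nearest gene is much further off than for the others.

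Other genes of acyl-CoA formation, conjugation and supply were counted from lists by membership. Against 1.38% of all genes higher and 1.46% lower, 1 of 16 tested acyl-CoA synthetases outside the members was called higher and 0 lower. That was Aacs, acetoacetyl-CoA synthetase, at 236, 106 and 242 CPM in DHT, against 30.9, 50.4 and 45.6 CPM in control (log2 fold change 2.20 ± 0.34 SE, edgeR adjusted p = 0.0343). Its call was lost with the replicate block (edgeR adjusted p = 0.0774), with no low-count filter (0.073) and without any single library other than DHT replicate 2 (0.0508 to 0.121). The median over the list was -0.40 in log2, against 0.00304 over all genes, and 10 of its 16 genes were at or under 0. Acsl1, the main long-chain ligase, stood at 120, 352 and 167 CPM in DHT, against 596, 737 and 539 CPM in control (log2 fold change -1.55 ± 0.38 SE, edgeR adjusted p = 0.0696). Slc27a2, a very-long-chain ligase and transporter of the tubule, was the most abundant of the list, averaging 4280 ± 1220 CPM in DHT, against 2420 ± 525 CPM in control (SD, n = 3 each, edgeR adjusted p = 0.117).

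Of 4 other tested genes that conjugate acyl groups to amino acids 0 were called by edgeR and 1 by DESeq2, against its 10.8% of all genes. Acnat1, which joins fatty acids to taurine, stood at 27.6, 109 and 37.5 CPM in DHT, against 151, 249 and 171 CPM in control, with no overlap (log2 fold change -1.72 ± 0.54 SE, edgeR adjusted p = 0.128). Baat, which conjugates bile acids, stood at 0.565, 4.88 and 0.949 CPM in DHT, against 8.42, 6.38 and 5.34 CPM in control (edgeR adjusted p = 0.211). Both were thus lower in every DHT library, while Gm4952 of the same list was higher in each. Among all genes, 15.0% did not overlap with DHT lower and 14.8% with DHT higher. Acnat2, the remaining gene tested, stood at 52.8, 54.7 and 102 CPM in DHT, against 96.8, 81.3 and 63.4 CPM in control, with overlap (log2 fold change -0.21 ± 0.28 SE, edgeR adjusted p = 0.689).

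Coenzyme A, which the ligases consume, is made from pantothenate. Of 13 tested genes of its supply and breakdown 0 were called by edgeR and 5 by DESeq2, against 10.8% of all genes with that tool. The groups did not overlap for 8 with DHT higher and 1 with DHT lower, against 14.8% and 15.0% of all genes, and the median log2 fold change over the list was 0.46. Nudt19, a peroxisomal coenzyme A hydrolase of the kidney, was the most abundant, at 2030, 364 and 1940 CPM in DHT, against 135, 312 and 249 CPM in control (log2 fold change 2.64 ± 0.69 SE, edgeR adjusted p = 0.0892). Pank1, a pantothenate kinase, stood at 531, 178 and 447 CPM in DHT, against 129, 160 and 121 CPM in control (edgeR adjusted p = 0.0736). As with Acsm2, DHT replicate 2 sat close to the controls for both.

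Glycine genes held 0 calls of 17 tested, with a median log2 fold change of 0.18, and DESeq2 called 4, where it called 10.8% of all genes. Of the 17, 11 had a positive log2 fold change. The groups did not overlap for 1 with DHT higher and 4 with DHT lower, against 14.8% and 15.0% of all genes. Gatm, which uses glycine to make guanidinoacetate, the precursor of creatine, was the most abundant, at 350, 656 and 583 CPM in DHT, against 1920, 1380 and 906 CPM in control, with no overlap (log2 fold change -1.40 ± 0.32 SE, edgeR adjusted p = 0.0589). Shmt1, which interconverts serine and glycine, stood at 47.9, 76.5 and 58.6 CPM in DHT, against 100, 98.4 and 102 CPM in control (edgeR adjusted p = 0.0563). Acyl-CoA thioesterases, which split acyl-CoA back into acid and coenzyme A, held 0 calls of 12, with a median of 0.04, and DESeq2 called 3, against the same 10.8%. The most abundant, Acot12, stood at 387, 150 and 285 CPM in DHT, against 88.2, 118 and 75.8 CPM in control (log2 fold change 1.55 ± 0.34 SE, edgeR adjusted p = 0.0594).

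Among 9 genes of short- and medium-chain acyl-CoA dehydrogenation, which oxidise acyl-CoA in the mitochondrion, 1 was called higher and 0 lower. Of all genes, edgeR called 1.38% higher and 1.46% lower. The groups did not overlap for 6 of the 9 with DHT higher and 0 with DHT lower, against 14.8% and 15.0% of all genes. A positive log2 fold change was seen for 7 of the 9, and the list median was 0.34. Acads, the short-chain dehydrogenase, rose to 242, 194 and 247 CPM in DHT, against 133, 144 and 140 CPM in control (log2 fold change 0.71 ± 0.13 SE, edgeR adjusted p = 0.0376). This call was lost with the replicate block (edgeR adjusted p = 0.094) and without any single library other than DHT replicate 2 (0.0749 to 0.14). Acadm, the medium-chain dehydrogenase, stood at 802, 569 and 805 CPM in DHT, against 516, 1060 and 1160 CPM in control, with overlap (log2 fold change -0.33 ± 0.30 SE, edgeR adjusted p = 0.538). Of 7 organic anion carriers, which take up and secrete hippurate-like products, 0 were called by edgeR and 3 by DESeq2, which called 10.8% of all genes. Slc22a6, or OAT1, the basolateral uptake carrier for hippurate-like anions, stood at 1180, 626 and 1170 CPM in DHT, against 542, 504 and 416 CPM in control, with no overlap (log2 fold change 1.03 ± 0.25 SE, edgeR adjusted p = 0.064). Slc22a8, or OAT3, stood at 623, 1200 and 756 CPM in DHT, against 1090, 981 and 701 CPM in control (log2 fold change -0.10 ± 0.27 SE, edgeR adjusted p = 0.845). Slc22a7, or OAT2, was the furthest from 0 on the list, at 39.4, 13.3 and 74.3 CPM in DHT, against 41.3, 251 and 264 CPM in control, with overlap at control replicate 1 (log2 fold change -2.13 ± 0.86 SE, edgeR adjusted p = 0.202).

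**Figure D5:**
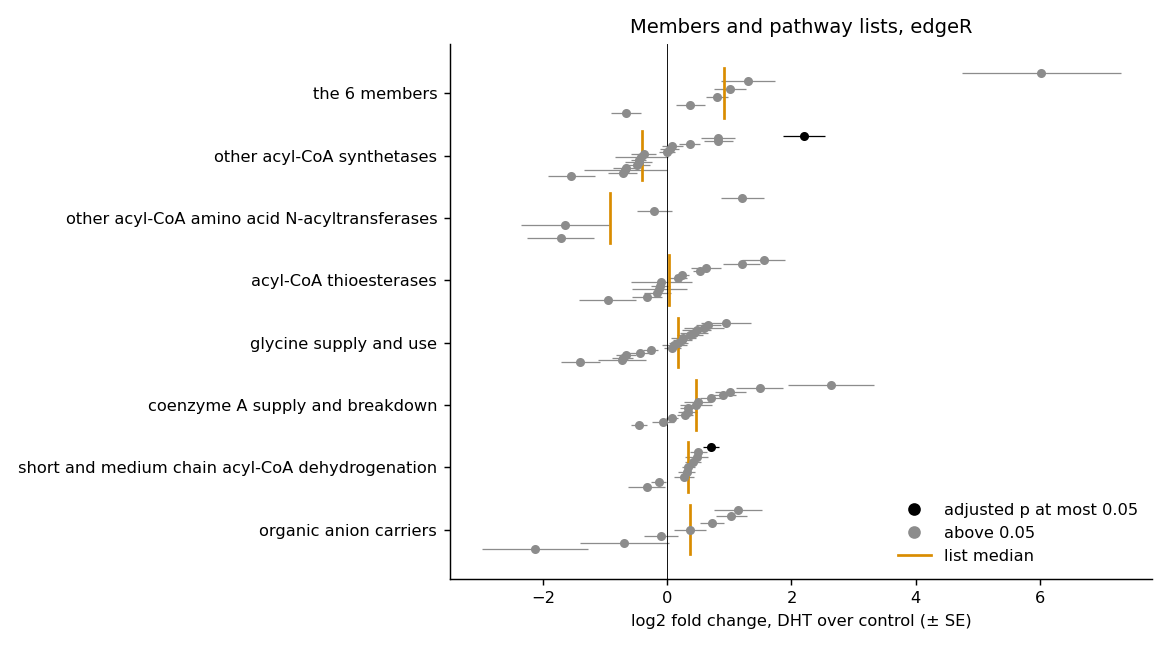
Log2 fold change of DHT over control with its SE for the 6 members and for the tested genes of each pathway list; black points passed an adjusted p of 0.05 in edgeR, grey points did not, and orange bars are list medians. The members' median is 0.90, Acsm3 is the point at 6.02, and the black points are Aacs at 2.20 and Acads at 0.71.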

How the data were processed

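Total RNA was taken from the kidneys with Trizol and made into mRNA libraries by Illumina's methods, per the labels' protocols. Per the submitters' processing notes, HISAT2 2.0 and mm10 were used; no source used here gives the counting tool, its annotation, strand use or filters. The authors deposited raw counts for each gene symbol, not normalized, and each column was matched to a sample by its title.

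Genes were kept by filterByExpr (minimum count 10, minimum total 15), scaled by TMM and tested with a robust quasi-likelihood fit in edgeR 4.0.16 (R 4.3.3) with the group as its single term, adjusted by Benjamini-Hochberg over all 15367 genes at 0.05. SE is the value that the F statistic implies, CPM uses TMM-scaled library sizes, and SD is over 3 libraries. Ratios within a library used raw counts plus 0.5. The common biological coefficient of variation was 0.217, and no 2 libraries of the same group agreed within sampling noise. Alternatives were median-ratio and total-count scaling, no low-count filter, 1 CPM in 3 libraries, DESeq2 1.42.0, limma-voom (limma 3.58.1), no robust step, thresholds of 0.01 and 0.10, a block for the replicate number, and each library left out in turn. Counts were simulated for 15172 genes with the common dispersion. On them the DHT over control fit recovered 57 of 100 genes changed 2-fold and 100 of 100 changed 4-fold, with 10 false calls. Recovery at a wider spread was not tested, such as that of Acsm3 (coefficient of variation 121% in DHT and 59.5% in control). Gene models are GENCODE M21 on GRCm38, similar transcripts were found with BLAST 2.17.0+, and windows before starts are RefSeq's.

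The members and gene lists were chosen with earlier results of these data known. Named by rule are the members, the called genes of each pathway list or, with none called, its most abundant gene, the 3 nearest genes in pattern per member and the nearest tested neighbours. Further list genes (Acsl1, Slc27a2, Baat, Acnat2, Shmt1, Pank1, Acadm, Slc22a6, Slc22a7), Gm19950 and the cell type markers named were chosen after their values were seen.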

Additional observations from a re-analysis of the deposited data

How the results depend on the processing

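The log2 fold changes of the 6 members kept their sign in all 14 settings and libraries left out, and the 9 ratio differences and the summed Acsm level did so in every setting run for them. The smaller ratio differences moved by over 1.5 times without 1 library. Glyat over Keg1 ran between 0.10 without control replicate 3 and 0.47 without control replicate 1. Glyat over Acsm2 ran between -0.52 and -0.02, and Keg1 over Acsm2 between -0.81 and -0.26, with the ends without DHT replicate 2 and without DHT replicate 1. Calls depended on the tool and on DHT replicate 2. With DESeq2, Acsm2 (1.31), Acsm3 (6.01), Glyat (1.02) and Keg1 (0.81) were called, with no robust step Acsm3 (6.02), with no low-count filter Glyat (1.01) and Keg1 (0.80), and with total counts Keg1 (0.69). Total counts moved the median log2 fold change of all genes to -0.101. Leaving out each library gave -0.93 to -0.46 for Acsm1, 1.05 to 1.68 for Acsm2, 4.35 to 6.57 for Acsm3, 0.18 to 0.58 for Acsm5, 0.79 to 1.29 for Glyat and 0.70 to 0.90 for Keg1.

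Members called higher were 4 with DESeq2, 2 with no low-count filter, 1 with total counts or no robust step, 3 at an adjusted p of 0.10, and 0 to 4 without a library. All genes called higher were 854 of 15062 tested with DESeq2 and 418 of 25414 with no low-count filter. Of 15367 tested, they were 132 with total counts, 233 with no robust step and 767 at 0.10. Without a library they were 0 to 745. In either direction, all genes called were 852 with no low-count filter, 1634 with DESeq2, 340 with total counts and 468 with no robust step. They were 4 at 0.01, 1528 at 0.10 and 0 to 1224 without a library (0 without DHT replicate 3). Among other acyl-CoA synthetases 0 were called with no filter, with the block or at 0.01, 7 with DESeq2, 5 at 0.10, and 0 to 5 without a library. N-acyltransferases had 1 call with DESeq2 or at 0.10 and 0 to 3 without a library. Thioesterases had 1 with no filter or no robust step, 3 with DESeq2 or at 0.10, and 0 to 4 without a library. Glycine genes had 1 with total counts, 3 with no filter, 4 with DESeq2 or at 0.10, and 0 to 4 without a library. Coenzyme A genes had 2 with no filter, 5 with DESeq2, 6 at 0.10, and 0 to 5 without a library. Dehydrogenation genes had 3 with DESeq2, 0 with the block or at 0.01, 2 at 0.10, and 0 to 2 without a library. Organic anion carriers had 2 with no filter or at 0.10, 3 with DESeq2, and 0 to 4 without a library. The cause of these moves was not tested.

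The replicate block left 85 genes called and 0 members. Deviations of same-numbered libraries correlated at 0.07, -0.15 and 0.04 across genes, and not every library correlated best with its own number. With 3 libraries in a group this cannot decide whether the numbers pair the samples, and the main fit used no pairing.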
